A study of Mus musculus with 6 samples.

Results

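Cardiac fibroblasts (CF) and cardiomyocytes (CM) of the mouse were compared gene by gene on 2 of the 6 Affymetrix arrays of the series. Both had been cultured with phosphate-buffered saline (PBS) for 48 h, written below as in PBS. The pair was taken by its labels, the fibroblast array and the cardiomyocyte array titled sham, and each difference is the fibroblast value minus the cardiomyocyte value. Of 19505 genes that the platform annotation names, 10394 reached the floor on at least 1 of these arrays and were compared. The floor, 6.55, is the median of all named values. Values are log2 probe set summaries, so a difference of 1 is 2-fold. For a single gene whose dimmer value lies under the floor, that value was replaced by the floor, and the difference is then a lower bound, written as "at least". Counts at 2-fold and list medians use the differences as measured. Each culture was measured once. With no replicate to set a difference against, no test was run, and every value describes these arrays.

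The mice of all 6 groups were C57BL/6N animals of 15 to 16 weeks, and the labels name no allele or transgene in any group. The other 4 arrays carried CF or CM after 48 h with the secretome of heart macrophages that had been sorted as Ccrl2+ or Ccrl2-. Those macrophages had been taken from 6 pooled hearts of wild-type mice, 1 week after transverse aortic constriction (TAC), an operation that overloads the heart with pressure. The protocols speak of macrophage co-culture where the source labels name a secretome, and a sample description names macrophages where the profiled cells were fibroblasts and cardiomyocytes. The source labels were followed, and PBS and the secretomes are called media below. How many animals gave each culture, how the cells were separated and how long they were grown is not stated in the labels, so animal, culture and cell type cannot be told apart.

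Cardiomyocytes are the contractile cells of the heart. Their myofibrils are built of thick myosin and thin actin filaments anchored at the Z-disc, calcium released from the sarcoplasmic reticulum triggers each beat, and densely packed mitochondria burn mainly fatty acids. Cardiac fibroblasts lay down and remodel the collagen-rich matrix around them, and after injury they can become myofibroblasts with smooth muscle actin. Many contractile and metabolic proteins exist as a muscle form and a form used by other cells, encoded by paralogous genes.

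The 8 promoters printed here belong to leading genes of the comparison, the 4 contractile and natriuretic genes and the 4 matrix and fibroblast genes with the largest lower bounds of the difference that have exactly 1 entry in the RefSeq promoter table. They are shown because they lie in front of the genes that separate the cultures most. Each run is the 250 bases before the annotated start, on the strand of the gene, from RefSeq on GRCm38.p6. Capitals mark matches on either strand to MEF2 and CArG, which are given by name, and to the motifs spelled out next. The muscle element M-CAT was searched as CATTCC. The GATA motif was searched as AGATAA or as TGATAA. The TATA box was searched as TATAAA. The E-box (CANNTG) and the GC box (GGGCGG) were counted and are not capitalised. A stretch that matches several motifs counts for each. The genes of the cardiomyocyte side are Myoz2 (chr3:123034988-123035237, minus strand), Tnni3 (chr7:4522529-4522778, minus strand), Nppb (chr4:147985650-147985899, plus strand) and Mybpc3 (chr2:91117894-91118143, plus strand).
Myoz2: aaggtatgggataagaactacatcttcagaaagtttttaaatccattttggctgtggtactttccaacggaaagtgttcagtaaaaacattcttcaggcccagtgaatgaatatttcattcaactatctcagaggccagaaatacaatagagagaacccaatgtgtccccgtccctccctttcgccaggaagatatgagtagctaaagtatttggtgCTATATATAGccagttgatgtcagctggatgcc
Tnni3: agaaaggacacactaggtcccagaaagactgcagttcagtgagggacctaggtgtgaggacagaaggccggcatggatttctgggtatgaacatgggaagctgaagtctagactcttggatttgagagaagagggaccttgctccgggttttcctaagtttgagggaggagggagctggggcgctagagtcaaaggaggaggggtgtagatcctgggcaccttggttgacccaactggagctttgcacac
Nppb: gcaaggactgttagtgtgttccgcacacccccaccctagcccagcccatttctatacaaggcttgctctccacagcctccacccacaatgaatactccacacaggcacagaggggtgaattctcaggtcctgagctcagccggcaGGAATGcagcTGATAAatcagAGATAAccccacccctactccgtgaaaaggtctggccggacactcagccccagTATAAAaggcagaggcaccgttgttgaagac
Mybpc3: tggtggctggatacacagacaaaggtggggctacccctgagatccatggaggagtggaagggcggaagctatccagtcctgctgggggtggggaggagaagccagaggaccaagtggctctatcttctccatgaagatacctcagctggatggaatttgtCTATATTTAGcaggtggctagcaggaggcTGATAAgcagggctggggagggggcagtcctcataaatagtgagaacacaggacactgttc
The genes of the fibroblast side are Sfrp2 (chr3:83766071-83766320, plus strand), Col3a1 (chr1:45311288-45311537, plus strand), Tcf21 (chr10:22820144-22820393, minus strand) and Prelp (chr1:133921402-133921651, minus strand).
Sfrp2: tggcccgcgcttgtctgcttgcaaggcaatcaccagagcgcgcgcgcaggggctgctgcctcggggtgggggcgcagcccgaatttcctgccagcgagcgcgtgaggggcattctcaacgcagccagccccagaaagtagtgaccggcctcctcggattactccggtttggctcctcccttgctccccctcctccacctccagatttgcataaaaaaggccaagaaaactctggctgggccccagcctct
Col3a1: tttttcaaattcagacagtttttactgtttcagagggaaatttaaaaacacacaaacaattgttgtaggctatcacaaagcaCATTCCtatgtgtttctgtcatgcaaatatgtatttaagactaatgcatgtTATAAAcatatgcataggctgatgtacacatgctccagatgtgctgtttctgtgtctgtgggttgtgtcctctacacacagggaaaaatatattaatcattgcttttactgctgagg
Tcf21: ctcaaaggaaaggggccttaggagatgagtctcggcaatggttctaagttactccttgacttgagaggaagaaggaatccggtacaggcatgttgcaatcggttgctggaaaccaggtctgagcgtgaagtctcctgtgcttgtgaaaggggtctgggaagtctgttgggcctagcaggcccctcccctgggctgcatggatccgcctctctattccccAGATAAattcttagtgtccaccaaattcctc
Prelp: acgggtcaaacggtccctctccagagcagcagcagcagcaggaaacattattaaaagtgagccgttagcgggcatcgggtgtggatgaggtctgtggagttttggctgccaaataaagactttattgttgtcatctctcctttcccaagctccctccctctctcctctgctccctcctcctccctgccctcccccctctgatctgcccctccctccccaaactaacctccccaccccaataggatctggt
Myoz2 held a MEF2 match 33 to 24 bases before the start, and Mybpc3 held one 90 to 81 bases before it with a GATA match at 61 to 56. In Nppb an M-CAT match at 105 to 100 was followed by GATA matches at 95 to 90 and 84 to 79 and by a TATA box at 31 to 26. Col3a1 held an M-CAT match at 168 to 163 and TATAAA at 117 to 112, and Tcf21 a GATA match at 31 to 26. Tnni3, Sfrp2 and Prelp held none of the capitalised motifs in this window.

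Among the 6691 genes past the floor with exactly 1 promoter entry, a MEF2 match stood in 1.55% of promoters, and in 10 of the 119 promoters (8.4%) of the 200 genes with the largest cardiomyocyte differences by lower bound. The share was 1.82% among 110 promoters of the 200 largest fibroblast differences. CArG matches were in 5.04% of the cardiomyocyte promoters, 1.82% of the fibroblast promoters and 1.29% of all. GATA matches were in 17.6%, 9.09% and 8.62%, respectively. M-CAT matches were more frequent on both sides, at 16.8% of the cardiomyocyte and 17.3% of the fibroblast promoters against 10.4% of all. TATAAA stood in 11.8% of either set and in 6.68% of all. The contractile lists described further on, with 27 promoters, held M-CAT in 37.0%, GATA in 25.9%, CArG in 14.8% and MEF2 in 14.8%, while 38 promoters of the collagen, elastic fibre and proteoglycan lists held them in 10.5%, 7.89%, 0.0% and 2.63%. Base composition differed between these sets. The median GC content was 55.2% in the cardiomyocyte set, 60.2% in the fibroblast set, 53.6% in the contractile set and 60.0% over all promoters, and the GC box stood in 35.3%, 48.2%, 22.2% and 61.4%, respectively. These shares are descriptions of letters in a window, and the part of base composition in them was not tested.

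At least 2-fold higher in fibroblasts were 1449 of the 10394 genes (13.9%), and 1756 genes (16.9%) were at least 2-fold higher in cardiomyocytes, together 30.8%. The counts of every gene list below are to be read beside these shares. The median difference over all genes past the floor was 0.01. The larger the difference, the more the cardiomyocyte side led: 524 genes against 766 at 4-fold, 131 against 245 at 16-fold and 13 against 29 at 256-fold. Counted by lower bounds, the totals were 1310 and 1585 at 2-fold and 6 and 16 at 256-fold. For 569 genes the cardiomyocyte value, and for 657 genes the fibroblast value, lay below the floor while the other did not. The floor had 147 genes within 0.1 above it and 147 within 0.1 below it, counted by the brighter value.

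The arrays had been brought to almost 1 distribution before deposit. Their sorted values differed by at most 0.17, so a shift of most genes in 1 direction could not be seen. Differences were read beside those of the probe sets that carry a negative control name on the array. What these probe sets match is not stated in the sources used, and their median on the fibroblast array, 6.69, was above that of the named probe sets, 6.53. Of 5222 such controls 2898 passed the floor, 747 were at least 2-fold higher on the fibroblast array and 141 on the cardiomyocyte array, 30.6% together, with a median of 0.55. A 2-fold difference alone therefore did not separate genes from controls, and a list median of up to 0.55 on the fibroblast side was no larger than that of the controls. At 8-fold, 20 controls were higher in fibroblasts and 13 in cardiomyocytes beside 247 and 404 genes, and at 16-fold 7 and 4 controls beside 131 and 245 genes. Where the brighter value was at least 10.74, which 5 in 100 controls reach on the fibroblast array, 33.0% of 4727 genes and 29.8% of 285 controls were 2-fold apart. The most extreme control differences were 5.89 and -4.51. The 8 labelling and hybridisation spike-in probe sets differed by -0.27 to 0.11. Genes with near-identical copies, among them the actins, Myh6 and Myh7, Myl12a and Myl12b, the Ly6, Serpina3 and Ifit genes and ribosomal proteins, are uncertain because probes can bind the related transcript.

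**Figure D1:**
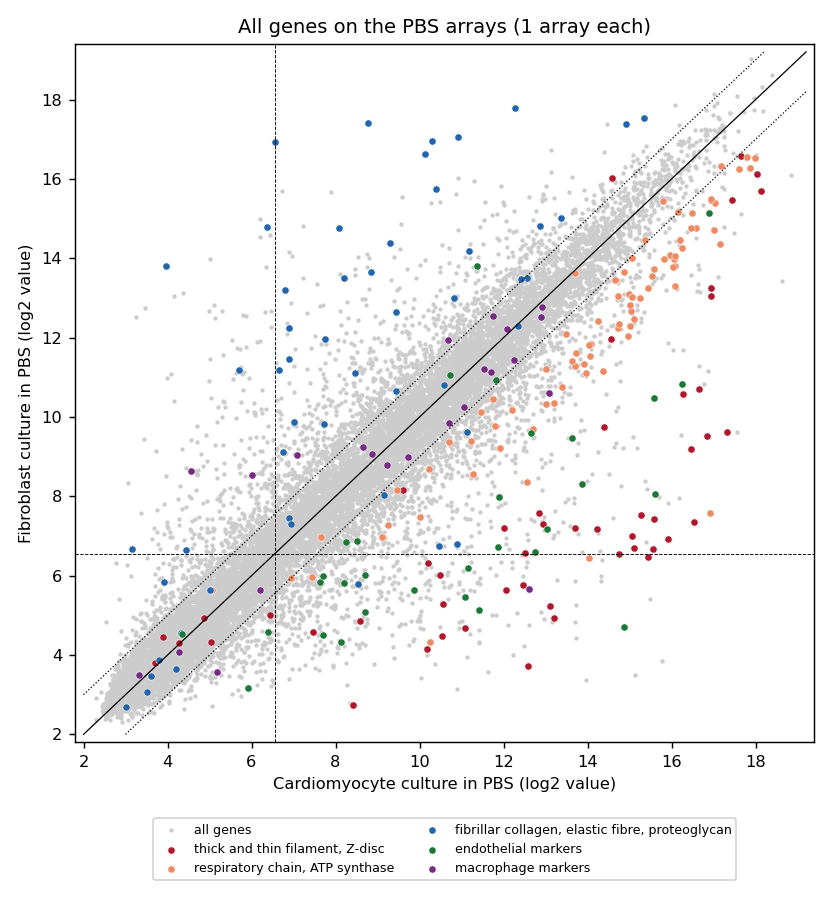
Log2 value of each gene in the fibroblast culture (vertical) against the cardiomyocyte culture (horizontal), 1 array each in PBS. Dashed lines mark the floor of 6.55, dotted lines a 2-fold difference. Contractile genes lie low on the right with fibroblast values as low as 2.75, matrix genes lie high on the left, and macrophage markers lie on both sides of the diagonal. As measured, the macrophage markers run from -6.93 for Lyve1 to 4.07 for Cx3cr1, with bounds of -6.05 and 2.08.

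Leading genes are ordered by lower bounds. The largest fibroblast difference was that of Mfap4, which encodes a microfibril-associated matrix protein, at 16.94 in CF and 6.55 in CM. On the other CF arrays it lay at 15.9 with the Ccrl2+ secretome and 15.6 with the Ccrl2- secretome, and on the other CM arrays at 6.64 and 6.63. The CM values thus stayed within 0.1 of the floor. The secreted Wnt modulator Sfrp2 lay at 15.69 against 6.73, and its relative Sfrp1 was at least 8.03 higher (14.58 against 6.44). Col3a1, the type III collagen chain of stretchable tissue, lay at 17.4 against 8.78. Tcf21, a transcription factor needed to form cardiac fibroblasts from the epicardium, was at least 8.45 higher, at 15.0 against 6.2. On the other arrays Tcf21 lay at 15.19 and 14.15 in CF and at 7.03 and 7.52 in CM, so the cultures did not overlap. The proteoglycan genes Prelp (14.78 against 6.36) and Fmod (13.8 against 3.96), which encode collagen-binding leucine-rich proteins, were at least 8.23 and 7.25 higher.

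The next fibroblast genes also encode secreted or surface-bound proteins. The heparin-binding growth factor Ptn lay at 14.53 against 6.2, the matricellular Ccn5 at 15.66 against 7.9, and dermatopontin (Dpt), which binds decorin and collagen, at 14.82 against 7.23. Spon2, a spondin of the matrix, was at least 7.43 higher (13.98 against 5.02). Ptn and Spon2 were lower on the other CF arrays, Ptn at 12.48 and 13.21 and Spon2 at 10.86 and 12.08, and remained above the CM arrays. Olfml3 (14.15 against 6.9), Lgi2 (13.79 against 6.35), Adamtsl3 (14.05 against 6.97) and the glypican Gpc3 (14.77 against 8.07) completed the 15 largest by lower bound.

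On the cardiomyocyte side Cox6a2, the heart and skeletal muscle form of a cytochrome oxidase subunit, had the largest lower bound, at 7.58 in CF and 16.91 in CM. As measured, with fibroblast values below the floor, Lcn2 (-11.91), Bmp10 (-11.62), Ly6c1 (-10.16) and Nppb (-10.08) were further apart than Cox6a2 (-9.33). The Z-disc protein gene Myoz2 lay at 7.34 against 16.54, and Tnni3, the inhibitory subunit of cardiac troponin, at 6.92 against 15.92. Tnni3 stayed between 15.44 and 15.92 on the 3 CM arrays and between 6.86 and 7.88 on the CF arrays. Nppb, which encodes the natriuretic peptide BNP, was at least 8.93 higher (5.4 against 15.48), and Bmp10, a ligand made by atrial muscle that acts on endothelial cells, at least 8.57 higher (3.5 against 15.12). Mybpc3 and Myl3 of the thick filament, Tnnc1 of the thin filament and the intermediate filament gene Des followed. So did Smpx, a small muscle protein, Casq2, the calcium store protein of the sarcoplasmic reticulum, and Pln, the inhibitor of its calcium pump. Another 3 of the 15 are best known from other cells. Lcn2, an acute phase protein that withholds iron from bacteria, lay at 3.85 against 15.76, the epithelial adhesion gene Perp at 6.86 against 15.39, and Ly6c1, a surface antigen of endothelial cells, at 4.7 against 14.86. Of these 30 genes, Lcn2 was the 1 whose CF and CM arrays overlapped over the 3 media, since it lay at 10.96 and 17.28 on the other CF arrays. The 30 genes were chosen by their PBS difference, so their separation is partly set by that choice.

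**Figure D2:**
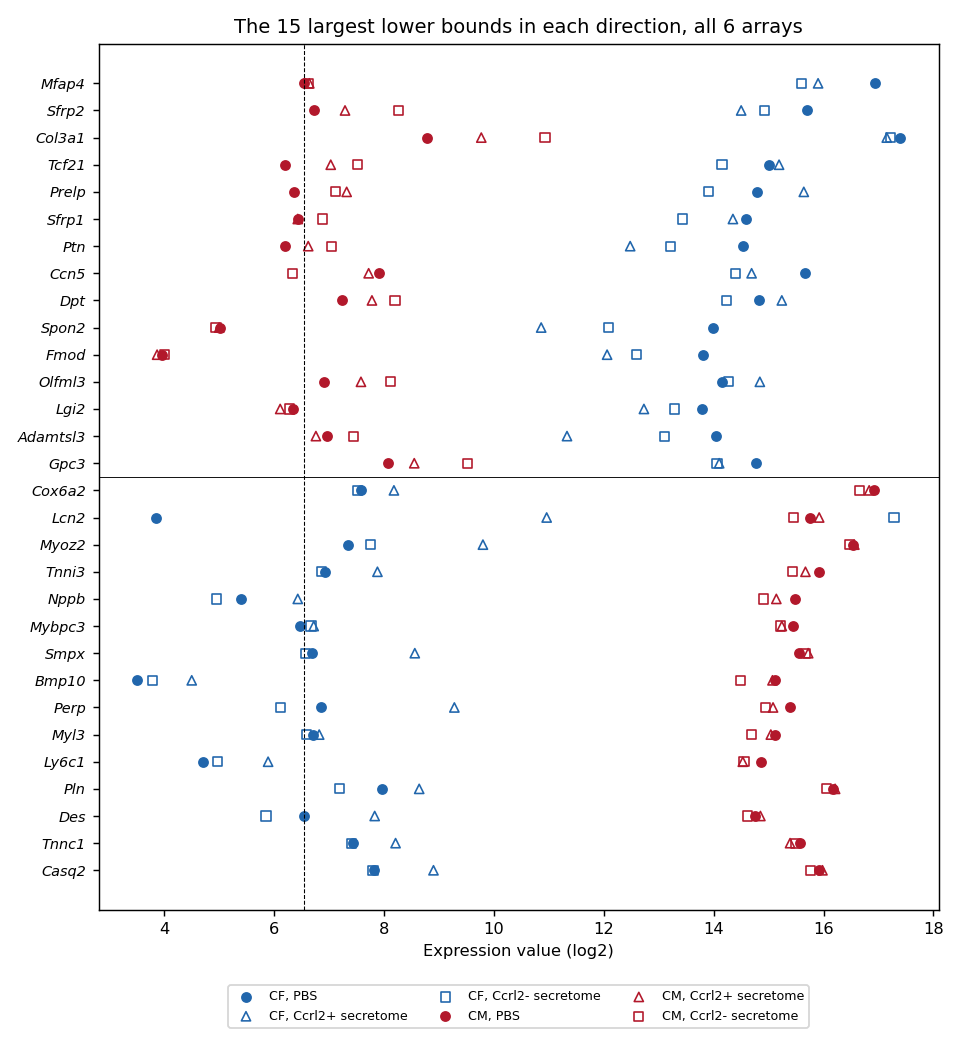
Log2 values of the 15 genes with the largest lower bound of the difference in each direction on all 6 arrays, with fibroblast arrays in blue, cardiomyocyte arrays in red and the floor of 6.55 dashed. For 29 of the 30 genes the arrays of one cell type lie apart from those of the other, and Lcn2, at 3.85 to 17.28 in fibroblasts, does not.

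The labelled cell types carried their markers. Fibroblast identity genes numbered 20 past the floor, 15 of them at least 2-fold higher in CF and 0 in CM, with a median of 2.9, and of 45 different genes of the thick filament, thin filament and Z-disc lists 44 were higher in CM and 1 in CF, with a median of -5.94. Each culture also held transcripts of the other. The proteoglycan Dcn lay at 15.34 in CM against 17.53 in CF, and Col1a2, a type I collagen chain, at 10.91 against 17.06. The intermediate filament gene Vim, shared by most mesenchymal cells, lay at 17.72 in CM and 17.68 in CF. In the other direction the fibroblast array carried the atrial natriuretic peptide gene Nppa at 16.1 against 18.85, the cardiac troponin Tnnt2 at 16.12 against 18.03 and the atrial light chain Myl4 at 13.26 against 16.94. These stood beside Tnni3 at 6.92 and Ryr2, the calcium release channel, at 4.43 in the same fibroblast culture. In RNA from whole cultures, fewer cells of a type and less RNA per cell cannot be told apart.

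Endothelial markers were carried mainly by the cardiomyocyte culture. Of 29 past the floor, 26 were higher in CM by at least 2-fold and 1 in CF, with a median of -3.92, and their summed level, on the log2 scale, was 15.9 in CF and 18.64 in CM. The VEGF receptor Kdr (6.59 against 12.74), the endothelial cadherin Cdh5 (10.49 against 15.57) and the sialomucin Emcn (10.82 against 16.25) were among them, and the lymphatic genes Lyve1 (5.67 against 12.6) and Prox1 (6.19 against 11.15) as well. Ptprb, a phosphatase of vascular endothelium, went the other way at 13.81 against 11.36 in PBS. With the secretomes its difference was -0.31 and 0.47. The angiopoietin receptor Tek was near equal in PBS (11.06 against 10.72), with differences of -1.17 and -0.8 with the secretomes. The part of endothelial cells in the cardiomyocyte side of the comparison was not tested, and some of the genes below that endothelial cells are known to share are marked as such.

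Epicardial and mesothelial markers stood on the fibroblast side, with 13 of 17 at least 2-fold higher in CF and 1 in CM, a median of 2.46 and summed levels of 17.35 and 14.59. The uroplakin Upk3b of mesothelium lay at 14.04 against 9.39, Bnc1 was at least 3.79 higher (10.34 against 6.05), and the Wilms tumour factor Wt1 at least 1.67 higher (8.22 against 5.48). Mesothelial Upk1b (13.64 against 13.43) and Msln (10.56 against 10.28) were near equal in PBS, so the cardiomyocyte culture held mesothelial transcripts too. With the Ccrl2+ and Ccrl2- secretomes the difference was 1.31 and -1.19 for Upk1b and 2.61 and -0.97 for Msln. The list shares Tcf21 with the fibroblast identity list.

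Macrophage markers were present in both cultures and differed in both directions. Of 19 past the floor, CF had the higher value of 4 by at least 2-fold and CM of 2, which is about the share of all genes (30.8%), with a median of -0.32 and summed levels of 15.36 and 15.8. The 2 higher in CM were Lyve1, which lymphatic endothelium shares, and the cathepsin Ctss (10.61 against 13.07). The mannose receptor Mrc1 lay at 12.76 and 12.92 and the complement gene C1qa at 11.22 and 11.54. The colony stimulating factor receptor Csf1r (11.95 against 10.67) was higher in CF, and so was the fractalkine receptor Cx3cr1, by at least 2.08 (8.63 against 4.56). Of the lymphocyte and granulocyte list 3 of 16 genes on the array passed the floor, and the T cell genes Cd3e and Cd3g, the B cell genes Cd79a and Ms4a1 and the neutrophil genes S100a8 and S100a9 lay below it in both cultures. Sox10, S100b and Mbp of Schwann cells and Adipoq and Plin1 of fat cells lay below it as well. The summed levels of these last 3 lists, in CF and CM, were 9.14 and 9.36 for lymphocytes and granulocytes, 11.04 and 11.15 for the 2 genes past the floor of the Schwann and neuronal list, and 5.94 and 11.43 for Pparg alone of the fat and red cell list. Mural cell genes were mixed, with 2 of 10 higher in CF and 7 in CM, beside 13.9% and 16.9% of all genes. Their median was -1.48 and their summed levels were 15.54 and 15.74. The list shares Des (6.55 against 14.75) with the Z-disc list and Abcc9 (5.79 against 11.43) with the ion channel list. The pericyte receptor Pdgfrb stood on the fibroblast side (15.44 against 12.91), and the proteoglycan Cspg4 (6.79 against 10.9) and the adhesion gene Mcam (11.16 against 13.77) on the other.

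Thick filament genes separated the cultures by the widest median among the lists of at least 5 genes. All 11 past the floor were higher in CM by at least 2-fold, with a median of -7.69. The CF arrays lay below the CM arrays for each of the 11, beside 29.2% of all genes. The alpha myosin heavy chain Myh6, the fast adult mouse form, lay at 9.63 against 17.32, and the slow beta form Myh7 at 7.59 against 12.84. The giant spring protein titin (Ttn) lay at 7.53 against 15.28, and the M-band gene Myom2 was at least 6.66 higher (4.94 against 13.21). Both ventricular light chains, Myl2 (9.51 against 16.85) and Myl3 (6.7 against 15.11), and both atrial ones, Myl7 (10.57 against 16.26) and Myl4 (13.26 against 16.94), were high in the cardiomyocyte culture. Of 19 genes on the list of atrial and ventricular markers, 17 were higher in CM. On the atrial side were Mybphl (by at least 6.04), the atrial potassium channel Kcnj3 (by at least 4.59) and the calcium pump inhibitor Sln (7.16 against 12.96). On the ventricular side, beside Myl2 and Myl3, Irx4 was at least 0.72 higher. Its CM value was close to the floor, at 7.27 in PBS and 6.11 with the Ccrl2- secretome. The venous and atrial factor Nr2f2 was near equal, at 13.24 and 12.62, and so was Hey2 of this list, at 9.49 and 9.77.

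Each of the 12 thin filament genes that passed the floor was at least 2-fold higher in CM, with a median of -6.2. Tnnc1, the calcium-binding troponin, lay at 7.44 against 15.57, the cardiac actin Actc1 at 10.71 against 16.65, and nebulette (Nebl), which links thin filaments to the Z-disc, at 7.01 against 15.06. The filament length regulators Tmod1 and Lmod2 lay at 7.17 against 14.22 and 5.77 against 12.47. Slow skeletal Tnni1, the troponin I of the fetal heart, was also present in the cardiomyocyte culture, at 12.0 against 7.2 in CF. Skeletal actin Acta1 and nebulin (Neb) lay below the floor in both.

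Of 22 Z-disc and costamere genes, 21 were higher in CM and 1 in CF, with a median of -5.46. Actn2, the alpha-actinin that cross-links thin filaments, lay at 9.2 against 16.45, the stretch-sensing Csrp3 at 5.23 against 13.11, and the PDZ-LIM gene Ldb3 at 7.21 against 13.71. The muscle ring finger ubiquitin ligases Trim55 (6.58 against 12.52) and Trim63 (7.29 against 12.93) belonged to the same side. Some members were abundant in both cultures, such as the stress-induced ankyrin repeat gene Ankrd1 (15.7 against 18.12), the chaperone Cryab (15.46 against 17.43) and Pdlim5 (15.48 against 16.94). Fhl2, a LIM-domain adaptor, was the 1 member higher in CF, at 16.02 against 14.59. Its difference was 0.28 and -0.28 with the secretomes.

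**Figure D3:**
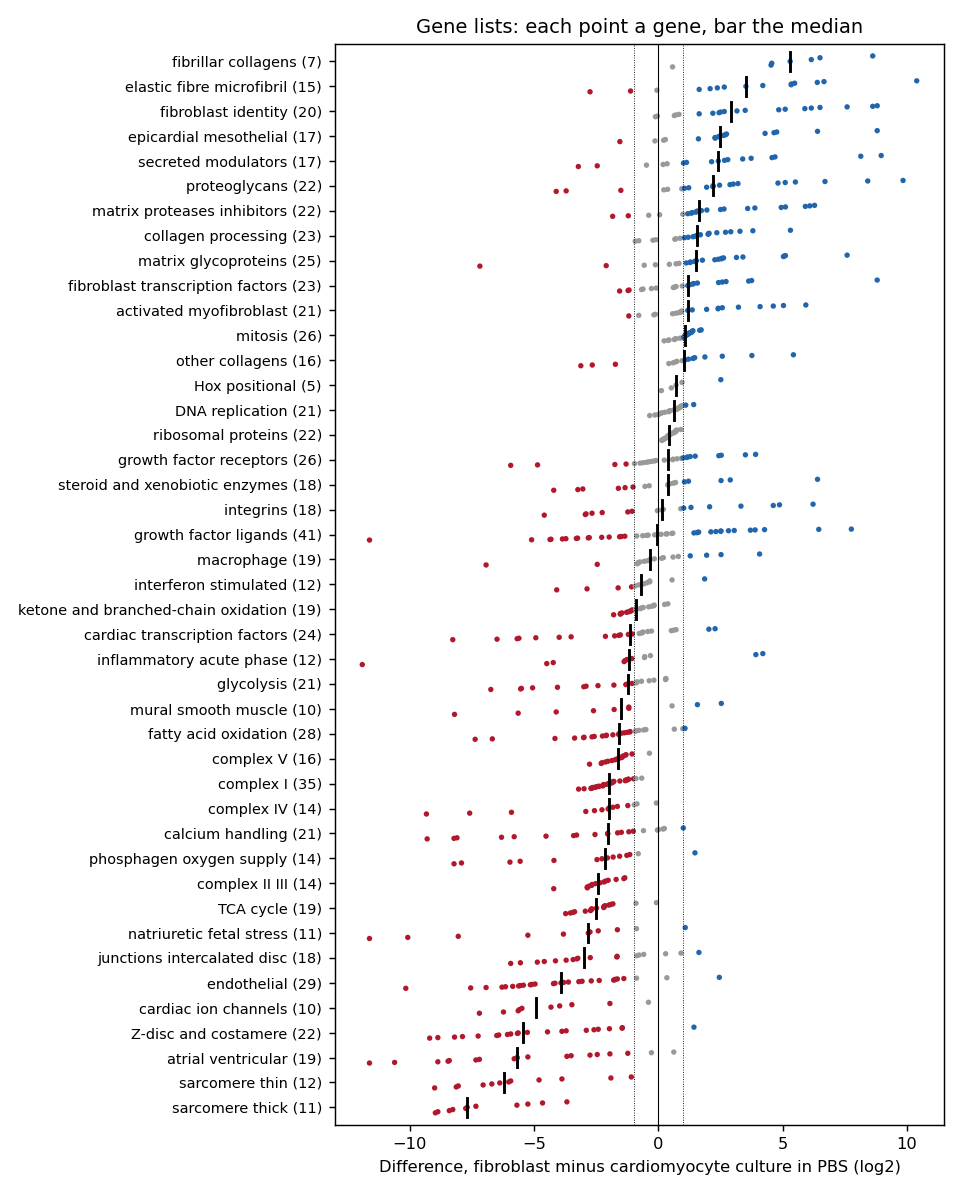
Difference between the cultures in PBS (horizontal, log2) for each gene past the floor of the gene lists with at least 5 such genes, with the number of genes in brackets and the list median as a black bar. Blue points are at least 2-fold higher in fibroblasts, red points at least 2-fold higher in cardiomyocytes. Medians run from 5.3 for fibrillar collagens to -7.69 for the thick filament.

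Members of paralogous families were often unequally far apart. The 29 families examined were chosen for holding a muscle form, with earlier results known, and 4 of them have 1 member past the floor, so they are described by their members and not counted. Among the myosin heavy chains, Myh6 stood 7.69 below its cardiomyocyte level in CF while the non-muscle myosin Myh10 was 2.86 higher there (14.37 against 11.51), and the other non-muscle form Myh9 was near equal (15.63 and 15.2). Among the actins, Actc1 went with cardiomyocytes, enteric smooth muscle Actg2 with fibroblasts (9.56 against 7.16), and vascular smooth muscle Acta2 (17.9 and 17.08) and cytoplasmic Actb (18.08 and 17.56) were high in both. Tpm1 was higher in CM (16.57 against 17.66) and Tpm2 in CF (14.04 against 12.1), with Tpm3 and Tpm4 within 0.2 of equal. Filamin C (Flnc, 8.15 against 9.6) and filamin A (Flna, 16.73 against 15.69) divided likewise. In the alpha-actinins the muscle form Actn2 stood apart, at a difference of -7.25, from Actn1 (0.36), Actn4 (-0.02) and the fast-fibre form Actn3 (0.48).

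Muscle forms were also the furthest apart in several families of energy metabolism, but not in all. Fabp3 of muscle differed by -6.68 and Fabp4, which endothelial cells also carry, by -7.55. The adenine nucleotide carriers Slc25a4 and Slc25a5 were close, at -1.27 and -0.97. Cox6a2 differed by -9.33 and its ubiquitous copy Cox6a1 by -0.86. Cox7a1 was at least 7.49 higher in CM (6.45 against 14.04), while the general form Cox7a2 was also higher in CM (11.34 against 13.91) and the related Cox7a2l lay at 13.63 and 13.71. Muscle phosphoglycerate mutase Pgam2 lay at 7.04 against 13.78 and the general form Pgam1 at 12.63 against 13.48. The lactate dehydrogenase of the heart, Ldhb, lay at 7.04 against 12.55 and that of glycolytic tissue, Ldha, at 15.7 against 16.58. Muscle glycogen phosphorylase Pygm lay at 8.19 against 15.42, with Pygb (11.39 against 13.08) and Pygl (6.74 against 8.3) less far apart. The mitochondrial creatine kinase Ckmt2 was at least 5.68 higher in CM (4.01 against 12.23). The muscle form Ckm was less far apart (8.67 against 10.23), and the brain form Ckb was higher in CF (13.04 against 11.57). In the carnitine palmitoyltransferases, the gate for long fatty acids into mitochondria, muscle Cpt1b was at least 6.72 higher in CM (5.9 against 13.27), while Cpt1c was higher in CF (8.46 against 7.3) and liver-type Cpt1a lay at 11.06 and 10.08. The translation factor Eef1a2 of muscle and neurons (6.2 against 11.67) stood on the cardiomyocyte side beside a near equal Eef1a1 (18.61 and 18.38). All 3 caveolins were higher in CM, the muscle form Cav3 (5.71 against 10.69) as well as Cav2 (7.08 against 9.71) and Cav1 (8.4 against 9.49), which endothelial cells also carry. With the secretomes Tpm2, Ckb and Actg2 had differences of 1.4 and 0.43, 0.66 and -0.16, and 1.03 and 0.39.

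**Figure D4:**
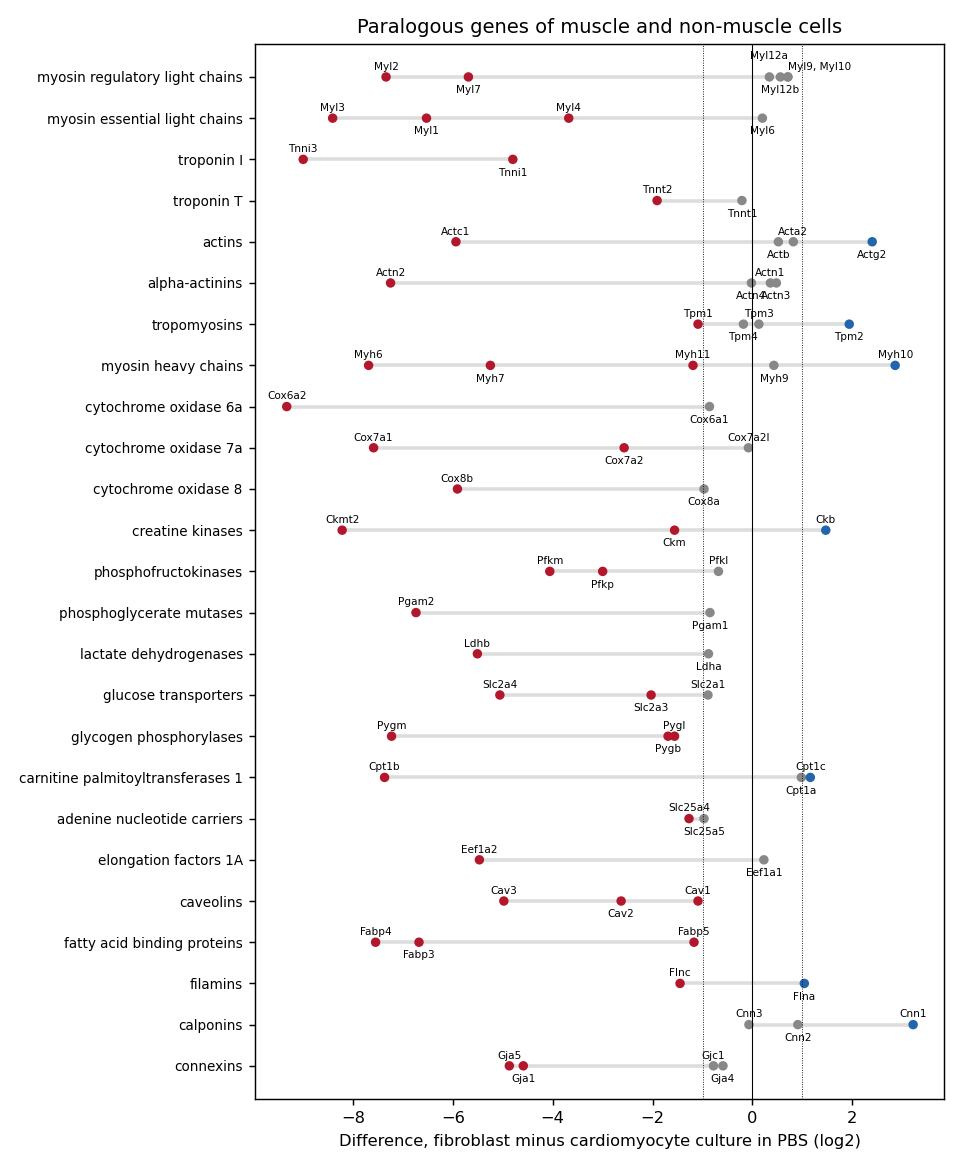
Difference between the cultures in PBS (horizontal, log2) for members of paralogous families with at least 2 members past the floor, colours as for the gene lists. Differences are as measured. Muscle forms such as Cox6a2 (-9.33), Myl3 (-8.41) and Cpt1b (-7.37, with a bound of -6.72) lie far left of forms used by other cells. Among the latter are Cox6a1 (-0.86), Myl6 (0.2) and Cpt1a (0.98).

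Of the calcium handling genes 21 passed the floor, and 15 of these were at least 2-fold higher in CM and 1 in CF, with a median of -2.04. Ryr2 was at least 7.18 higher (4.43 against 13.73). Its partners at the calcium release site, Casq2 (7.82 against 15.92) and triadin (Trdn, 7.26 against 13.57), and the pump inhibitor Pln (7.96 against 16.18) followed. The sodium-calcium exchanger Slc8a1 lay at 10.15 against 14.67. The calcium pump Atp2a2, whose gene also serves other cells, was high in both at 15.11 against 17.66. The pore subunit of the L-type calcium channel, Cacna1c, lay at 11.79 against 13.28. The junctophilin Jph2, which ties the channel's membrane to the store, was equal within 0.1 in PBS (10.6 and 10.59). With the secretomes the Jph2 difference was -0.59 and -1.2. The store sensor Stim1 was the 1 member counted for CF, at 7.99 against 6.99.

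Of 10 ion channel genes past the floor, 9 were higher in CM and 0 in CF, with a median of -4.9. The other 10 on the array lay below the floor in both cultures, among them the pacemaker channels Hcn2 and Hcn4. The repolarising channel Kcnh2 lay at 6.95 against 13.18, the beta subunit Kcne1 was at least 3.3 higher (4.36 against 9.85) and its partner Kcnq1 at least 2.07 (4.3 against 8.62). The sodium pump regulator phospholemman (Fxyd1) lay at 7.94 against 13.53. The sodium pump subunit Atp1b1 was near equal at 14.59 and 14.99.

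Genes of the intercalated disc, the junction between cardiomyocytes, had a median of -2.99, with 12 of 18 higher in CM and 1 in CF. Desmoplakin (Dsp), which anchors desmin, was at least 5.9 higher (6.51 against 12.45), and the connexins Gja1 (11.69 against 16.28) and Gja5 (4.79 against 9.66) lay on the same side. Gja5 is also a connexin of arterial endothelium. Plakoglobin (Jup), shared by desmosomes and adherens junctions, was higher in CF in PBS (14.36 against 12.73), by 1.47 with the Ccrl2+ secretome and by -0.06 with the Ccrl2- secretome. Vinculin (Vcl) lay at 15.37 and 14.46.

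Of 24 cardiac transcription factors past the floor, 13 were higher in CM and 2 in CF, with a median of -1.13. Smyd1, a muscle methyltransferase, was at least 5.94 higher (4.22 against 12.49). The mitochondrial coactivator Ppargc1a was at least 5.92 higher (5.98 against 12.47), the limb and heart factor Tbx5 at least 4.74 (5.61 against 11.29), and the serum response factor coactivator Myocd at least 3.49 (5.11 against 10.04). Some other factors of the cardiac programme were less far apart than Tbx5. Hand2 lay at 7.39 against 8.92. Gata4 lay at 13.63 and 14.31, Mef2a at 14.57 and 15.34, Mef2c at 12.93 and 13.36 and Tbx20 at 16.62 and 15.91. Nkx2-5 was close to the floor, at 5.61 against 6.66. On the fibroblast side stood Tbx18 (11.71 against 9.43), a factor of the epicardium, and the GATA cofactor Zfpm2 (9.62 against 7.59). This median fell under 2-fold in several settings, for example -0.7 with values under the floor raised to it.

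The natriuretic and fetal stress list had a median of -2.82, with 9 of 11 higher in CM and 1 in CF. Corin, the protease that activates the atrial peptide, was at least 5.07 higher (3.57 against 11.62). The calcineurin regulator Rcan1 lay at 7.78 against 11.6. Endothelin 1 (Edn1), a vasoconstrictor peptide that endothelial cells also make, lay at 11.05 against 13.87. The receptor for C-type natriuretic peptide, Npr2, was higher in CF (11.51 against 10.43).

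Genes of oxidative phosphorylation were higher in the cardiomyocyte culture almost without exception, though by less than the contractile genes. Of 79 past the floor, 73 were higher in CM by at least 2-fold and 0 in CF, with a median of -2.02. For 78 of the 79 all 3 CM arrays lay above all 3 CF arrays, beside 29.2% of all genes. Complex I, which takes electrons from NADH, had a median of -1.99 over 35 genes with 33 higher in CM, from Ndufa5 (11.16 against 14.37) to Ndufv3 (6.98 against 7.65). Complexes II and III had -2.44, with 14 of 14 higher in CM, led by Cyc1 (8.35 against 12.56). Complex IV had -2.0 with 11 of 14, and ATP synthase -1.64 with 15 of 16, where the membrane ring gene Atp5g3 lay at 13.3 against 16.07 and its copy Atp5g2 at 15.44 against 15.8. The medians of the complexes thus lay within a narrow span. As measured, differences beyond -5 were those of the muscle forms Cox6a2, Cox7a1 and Cox8b. By lower bound Cox8b was at least 3.7 higher in CM (4.34 against 10.25), which is less than Cyc1.

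The tricarboxylic acid cycle and its entry enzyme pyruvate dehydrogenase had a median of -2.49, with 17 of 19 genes higher in CM. Idh3a lay at 13.17 against 16.61, Pdhb at 13.72 against 16.66 and the mitochondrial malate dehydrogenase Mdh2 at 14.34 against 16.17. The list also holds the cytosolic malate dehydrogenase Mdh1, at 13.14 against 16.68. The GTP-forming succinyl-CoA ligase gene Suclg2 was near equal (10.03 and 10.11). Of 28 fatty acid oxidation genes, 20 were higher in CM and 1 in CF, with a median of -1.58. The fatty acid carrier Fabp3 lay at 9.55 against 16.23 and the uptake receptor Cd36, which capillary endothelium also carries, at 9.47 against 13.63. The beta-oxidation dehydrogenase Acadl lay at 11.39 against 14.76. Pdk4, a brake on pyruvate dehydrogenase, lay at 7.19 against 10.2 in PBS, a difference of -3.01 that was 0.55 with the Ccrl2+ secretome. The hormone-sensitive lipase Lipe was counted for CF, at least 0.17 higher (6.72 against 5.65). Ketone and branched-chain amino acid oxidation had a smaller median, -0.92, with 9 of 19 higher in CM and 0 in CF. Bcat2 lay at 8.18 against 9.71, and the ketone body enzyme Oxct1 was near equal (14.93 and 14.68).

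Of 14 genes of phosphagen transfer and oxygen supply, 12 were higher in CM and 1 in CF, with a median of -2.16. Myoglobin (Mb), the oxygen store of muscle, lay at 9.63 against 17.55. The AMP deaminase Ampd3 lay at 9.21 against 15.18, a difference of -5.97 that was -1.72 and -1.44 with the secretomes. Glycolysis had a median of -1.24, with 12 of 21 higher in CM and 0 in CF. Its muscle isoforms led, with enolase Eno3 at 7.37 against 12.91, the insulin-responsive glucose transporter Slc2a4 at least 3.38 higher (4.87 against 9.93) and phosphofructokinase Pfkm at 9.06 against 13.12. Of the other enzymes, Gapdh (17.2 and 17.57) and Pkm (16.02 and 16.2) were near equal. Others were past 2-fold, such as Pfkp (10.57 against 13.57), Hk1 (11.89 against 14.8) and Pgk1 (13.28 against 15.07). With the Ccrl2- secretome the glycolysis median was -0.15.

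On the fibroblast side, 93 of 130 genes of the matrix and its processing were at least 2-fold higher in CF and 12 in CM, with a median of 1.82. Of 7 fibrillar collagen genes past the floor, 6 were higher in CF and 0 in CM, with a median of 5.3. Col1a1 lay at 16.63 against 10.13, Col5a2, which helps set fibril width, at 13.49 against 8.19, and Col11a1 at 11.45 against 6.89. All 3 CF arrays lay above all 3 CM arrays for each of the 7, beside 25.6% of all genes. Among other collagens, 8 of 16 were higher in CF and 3 in CM, with a median of 1.02 that fell under 2-fold in 6 alternatives. The microfibril-forming Col6a1 (11.6 against 7.84) and the fibril-associated Col14a1 (10.47 against 5.04, at least 3.92) stood on the fibroblast side. The basement membrane chains Col15a1 (6.33 against 9.45, at least 2.9) and Col18a1 (9.45 against 12.11), both also made by endothelial cells, stood on the cardiomyocyte side, and Col4a1 (13.83 and 13.16) and Col4a2 (14.03 and 13.28) between them.

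Of 23 genes that modify and cross-link collagen, 16 were higher in CF and 0 in CM, with a median of 1.56. The collagen uptake receptor Mrc2 lay at 14.86 against 9.55, the lysyl hydroxylase Plod2 of cross-link formation at 14.72 against 10.92, and the lysyl oxidases Loxl1 and Lox at 15.12 against 11.84 and 17.38 against 14.47. The procollagen protease Bmp1 lay at 12.67 against 10.32 and the collagen chaperone Serpinh1 at 15.85 against 14.29. The cathepsin Ctsk, a collagenase of lysosomes, was equal within 0.2 at 10.9 and 11.0.

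The elastic fibre and microfibril list had a median of 3.52, with 12 of 15 higher in CF and 2 in CM. Elastin (Eln) lay at 16.96 against 10.3. The fibulins Fbln5 (15.74 against 10.4) and Fbln1 (12.25 against 6.9) and the latent TGF-beta binding protein Ltbp4 (13.19 against 6.8) followed Mfap4. Emilin2 was at least 1.98 higher in CM (5.78 against 8.53), and Ltbp1 was on the same side (8.04 against 9.16). Efemp1 was near equal (12.29 and 12.35).

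Of 22 proteoglycan genes, 16 were higher in CF and 3 in CM, with a median of 2.2. Osteoglycin (Ogn, 17.79 against 12.28) and lumican (Lum, 14.39 against 9.29) regulate collagen fibril assembly. Biglycan (Bgn) was high in both at 17.38 against 14.92. The glypican Gpc6 lay at 13.65 against 8.84, and another glypican, Gpc1, stood on the cardiomyocyte side at 6.75 against 10.46. Versican (Vcan) was near equal at 10.8 and 10.58.

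Matrix glycoproteins had a median of 1.53, with 18 of 25 higher in CF and 2 in CM. The thrombospondins divided, with Thbs2 at 16.03 against 10.92 on the fibroblast side and Thbs4 at 7.07 against 14.25 on the cardiomyocyte side. Periostin (Postn), a marker of activated fibroblasts, lay at 16.05 against 13.64, and fibronectin (Fn1) at 17.86 against 16.09. Sparc, a collagen-binding protein, was high in both (19.02 against 17.9). Sparcl1 was higher in CM in PBS (9.26 against 11.36), and its difference was 1.45 with the Ccrl2+ secretome. Tenascin C (Tnc) was equal within 0.2, at 12.34 and 12.46.

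Of 22 matrix proteases and inhibitors, 17 were higher in CF and 2 in CM, with a median of 1.64. The membrane-bound metalloproteases Mmp16 (13.51 against 7.23) and Mmp14 (15.59 against 12.95) and the gelatinase Mmp2 that Mmp14 activates (16.72 against 13.13) belonged to the fibroblast side. Mmp23 and the stromelysin Mmp11 were at least 5.19 and 4.35 higher (11.74 against 5.65 and 10.9 against 4.99). The aggrecanase Adamts5 lay at 15.43 against 10.49. Of the inhibitors, Timp2 (16.41 against 15.23) and Timp3 (15.68 against 14.36) were higher in CF and Timp1 in CM (12.03 against 13.24).

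Of 21 activated fibroblast and myofibroblast genes, 11 were higher in CF and 1 in CM, with a median of 1.18 that was 0.93 to 0.99 in 4 alternatives. The contractile genes that define the myofibroblast were high in both cultures and under 2-fold apart, with Acta2 at 17.9 and 17.08 and Tagln at 16.18 and 15.24. Larger differences were those of the myosin light chain kinase Mylk (12.86 against 6.93), the collagen-binding integrin Itga11 (at least 2.99, 9.54 against 4.92), Cthrc1, a secreted marker of activated fibroblasts (at least 4.43, 10.98 against 5.95), and calponin Cnn1 (at least 2.94, 9.49 against 6.27). With the Ccrl2+ secretome the Cthrc1 difference was 1.23.

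Of 23 fibroblast transcription factors past the floor, 12 were higher in CF and 3 in CM, with a median of 1.18 that was 0.71 with values under the floor raised to it. After Tcf21 came Creb3l1 (13.21 against 9.46), a membrane-bound factor that drives collagen genes, and Sox9 (11.69 against 8.06), the cartilage factor. Osr1 lay at 13.2 against 10.48 and Snai2 at 14.7 against 12.13. Foxc1, which endothelial cells also carry, stood on the cardiomyocyte side (8.55 against 10.11). Positional Hox genes were scarce, since 5 of 19 genes of that list passed the floor, and the Hox members among them were Hoxb2 (6.61 and 6.49) and Hoxa4, at least 0.36 higher in CF (6.91 against 4.4).

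Growth factor ligands were split evenly, with 15 of 41 higher in CF and 15 in CM, beside 13.9% and 16.9% of all genes. Their median was -0.04. On the fibroblast side stood Fgf2 (11.28 against 7.01), the epithelial mitogen Fgf7 (at least 1.39, 7.94 against 4.24), Bmp3 (at least 4.92, 11.47 against 5.02), Gdf6 (11.95 against 8.06) and insulin-like growth factor 1 (Igf1, 15.52 against 13.21). On the cardiomyocyte side stood, beside Bmp10, neuregulin 1 (Nrg1, 10.9 against 14.76) and Pdgfb (at least 3.67, 5.9 against 10.22), which endothelial cells are known to make, Fgf1 (at least 3.59, 5.78 against 10.14) and Vegfb (8.93 against 11.71). The matched receptors lay on the opposite side for PDGF, since Pdgfrb was higher in CF by 2.53 while Pdgfb was higher in CM. The endothelin receptor Ednrb, which endothelial cells also carry, by contrast lay with its ligand Edn1 on the cardiomyocyte side (10.82 against 16.76). Tgfb1 lay at 12.6 and 13.01, Tgfb2 at 14.44 and 14.09, and Tgfb3 was higher in CF (14.24 against 12.62).

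Of 26 growth factor receptors, 9 were higher in CF and 4 in CM, beside 13.9% and 16.9% of all genes. The CM count is about that share. Their median of 0.4 was under the 0.55 of the controls. Fgfr2 (11.22 against 7.31), Fgfr1 (10.86 against 8.43) and Egfr (at least 2.29, 8.84 against 5.34) stood on the fibroblast side. The muscarinic receptor Chrm2, through which the vagus slows the heart, was at least 4.02 higher in CM (5.71 against 10.57). The angiotensin receptor Agtr1a was equal within 0.2 (8.13 and 8.23), and Tgfbr3 was higher in CM in PBS (9.27 against 10.57) with differences of 2.01 and 0.46 in the other media.

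Secreted modulators of Wnt, insulin-like growth factor and BMP signalling were mostly on the fibroblast side, with 12 of 17 past the floor higher in CF, 2 in CM and a median of 2.41. The insulin-like growth factor binding proteins Igfbp5 (11.72 against 7.03) and Igfbp4 (13.24 against 9.51) and the Wnt antagonist Frzb (12.67 against 8.1) followed Sfrp2 and Sfrp1. The activin antagonist Fst (7.68 against 10.9) and Dkk3 (11.3 against 13.76) were higher in CM. As many as 17 of the 34 genes of this list on the array lay below the floor in both cultures, and without a floor the median was 0.42.

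Integrins were split, with 7 of 18 higher in CF and 7 in CM, beside 13.9% and 16.9% of all genes. Their median was 0.16. Itga8 (at least 6.13, 12.68 against 6.46), Itgb8 (at least 3.7, 10.25 against 5.38) and Itgb5 (15.33 against 12.01) stood with fibroblasts. Itga6, a laminin receptor chain (11.02 against 13.96), and Itga5 (9.67 against 12.58), both also found on endothelial cells, and Itgb1bp2, the muscle protein melusin that binds the beta 1 chain (at least 4.12, 6.08 against 10.67), stood with cardiomyocytes. The shared beta 1 chain Itgb1 was near equal at 17.28 and 17.15.

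Mitosis genes were higher in the fibroblast culture in PBS. Of 26 such genes, 18 were at least 2-fold higher in CF and 0 in CM, beside 13.9% and 16.9% of all genes. Their median was 1.08, beside 0.01 over all genes and 0.55 over the negative controls, and their range was 0.23 to 1.72. The proliferation marker Mki67 lay at 14.19 against 12.83, topoisomerase Top2a at 10.3 against 8.58 and cyclin Ccnb2 at 12.84 against 11.51, so both cultures carried these transcripts. Of 21 DNA replication genes, 2 were higher in CF and 0 in CM, which is under the 13.9% of all genes, and their median of 0.61 was close to that of the controls. With the Ccrl2+ secretome the mitosis median was -1.53 and with the Ccrl2- secretome 0.3, so the order of the cultures in these genes was not the same in the 3 media.

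Inflammatory and acute phase genes were higher in CM in PBS, 7 of 12 against 2 in CF, beside 16.9% and 13.9% of all genes. Their median of -1.17 was -0.04 without a floor. Beside Lcn2, the adhesion molecule Icam1 of endothelial and other cells (7.22 against 11.71) and the protease inhibitor Serpina3n (8.88 against 13.11) stood on that side. Saa3 and haptoglobin (Hp), both acute phase genes, were at least 2.22 and 1.03 higher in CF (8.77 against 4.85 and 7.58 against 3.38). Interferon-stimulated genes had a median of -0.69, with 4 of 12 higher in CM and 1 in CF, beside 16.9% and 13.9% of all genes. Rsad2 was at least 2.98 higher in CM (5.44 against 9.53) and Ifit2 was higher in CF (10.45 against 8.59). With the Ccrl2- secretome the medians of both lists were 4.27 and 3.83.

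Ribosomal protein genes were less than 2-fold apart for all 22 genes past the floor, with a median of 0.44, under that of the controls, and a range of 0.14 to 0.91. For 20 of them all CF arrays lay above all CM arrays, beside 25.6% of all genes. Enzymes of steroid and xenobiotic metabolism were mixed, with 5 of 18 higher in CF, 6 in CM and a median of 0.38. The shares over all genes were 13.9% and 16.9%, and the controls had a median of 0.55. The retinoic acid synthesising enzyme Aldh1a2 of epicardium was at least 5.38 higher in CF (11.93 against 5.53), and Hsd11b1, which regenerates active glucocorticoid, lay at 14.94 against 12.05. The alcohol dehydrogenase Adh1 was at least 1.93 higher in CM (4.27 against 8.48), and the soluble epoxide hydrolase Ephx2 lay at 9.03 against 12.27. Of these enzymes the flavin monooxygenase Fmo2 differed by 0.46 in PBS and by 5.62 and -1.79 with the secretomes.

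The pairs of arrays from the other media share no array with the PBS pair. They are other conditions and not replicates of it. With the Ccrl2+ secretome 1386 of 10336 genes that reached the floor (13.4%) were 2-fold or more higher in CF and 1821 (17.6%) in CM, together 31.0%. With the Ccrl2- secretome they were 1274 of 10389 (12.3%) and 1635 (15.7%), together 28.0%. Of the 1756 genes higher in CM in PBS, 1324 (75.4%) were also at least 2-fold higher there with the Ccrl2+ secretome and 1289 (73.4%) with the Ccrl2- secretome. Of the 1449 genes higher in CF, 903 (62.3%) and 746 (51.5%) were. In all 3 media 598 genes (5.75%) were at least 2-fold higher in CF and 1064 (10.2%) in CM. All CF arrays lay above all CM arrays for 2665 genes (25.6%), and all CM arrays above all CF arrays for 3031 (29.2%). The PBS differences correlated, across genes that are no replicates of each other, with those of the other media at Pearson r of 0.88 and 0.84.

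Contractile, respiratory and matrix genes mostly kept their side across media. Of the 45 contractile genes, 42 were at least 2-fold higher in CM in all 3 media, and of the 79 oxidative phosphorylation genes 71 were. Of the 130 matrix genes, 72 were higher in CF and 8 in CM in all 3. Fibrillar collagens had medians of 5.3 in PBS, 4.54 with the Ccrl2+ secretome and 4.17 with the Ccrl2- secretome, and the thick filament -7.69, -6.45 and -7.67. Genes at least 2-fold apart in both directions were counted by lower bounds, without predicted, clone, olfactory, vomeronasal and small RNA symbols. With the Ccrl2+ secretome 34 turned from CF to CM and 20 from CM to CF, and with the Ccrl2- secretome 1 and 56. As measured and with all symbols, 40 of the genes higher in CF in PBS (2.76%) and 24 of those higher in CM (1.37%) turned with the Ccrl2+ secretome. With the Ccrl2- secretome 2 (0.138%) and 62 (3.53%) did.

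**Figure D5:**
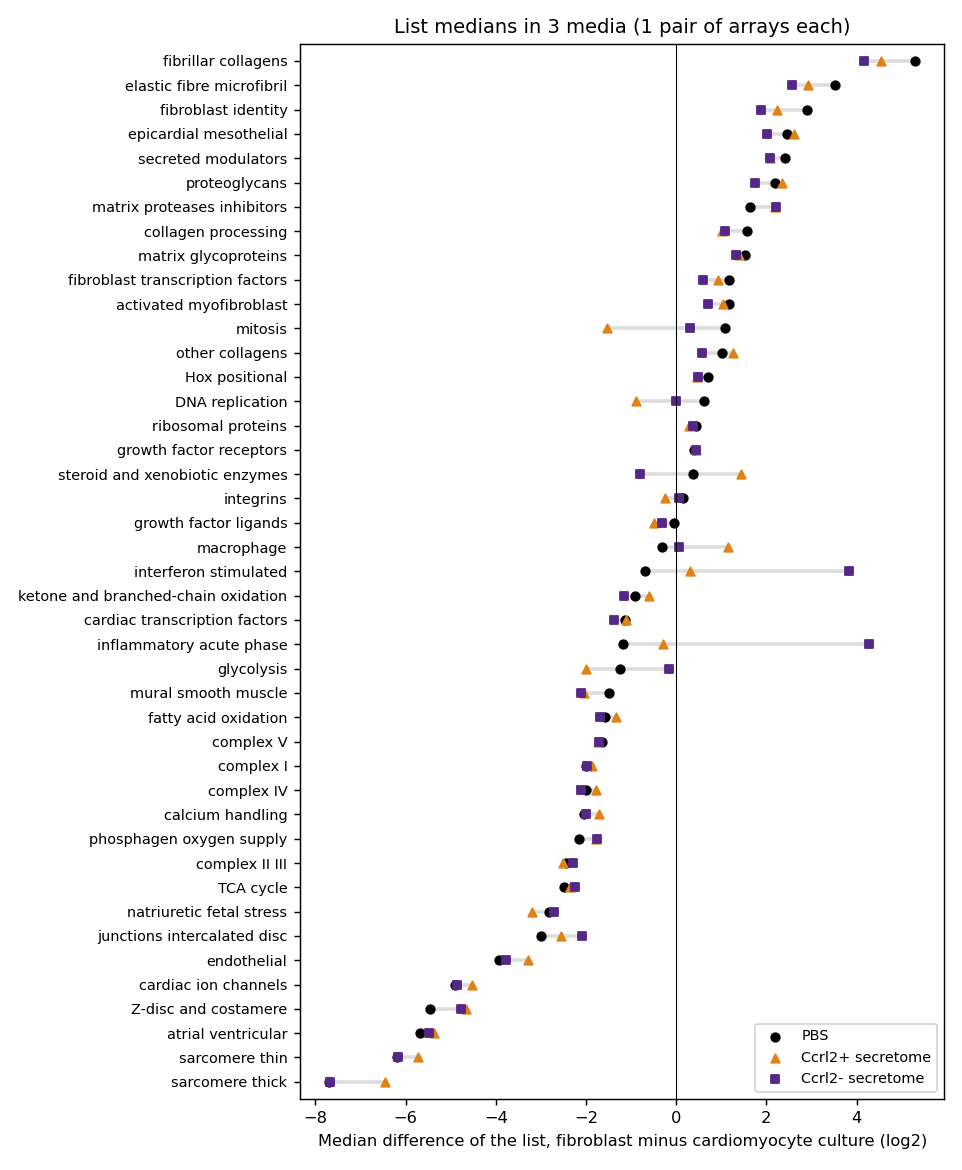
Median difference between fibroblast and cardiomyocyte cultures (horizontal, log2) of each gene list in PBS (black), with the Ccrl2+ secretome (orange) and with the Ccrl2- secretome (purple), 1 pair of arrays each. Contractile, respiratory and matrix lists keep their side, while mitosis (1.08, -1.53 and 0.3) and inflammatory genes (-1.17, -0.29 and 4.27) do not.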

How the data were processed

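Biotin-labelled RNA (1 to 8 ug) from each culture was hybridised to 1 Affymetrix array, per the labels' protocols. The authors deposited log2 summaries per probe set, produced in Affymetrix Expression Console, as the submitters' processing notes name it. The program's version, algorithm, annotation and build are not given in these sources. No scanner files were used. The log2 scale was read from the values. Arrays are matched to groups by their own labels, and 0 columns of the table were left unmapped.

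The platform annotation names 1 symbol for 19572 of 28846 probe sets and none for 9274. Where a symbol had several probe sets (55 symbols), the one brightest on average across the 6 arrays was kept. The Entrez identifiers of all 19505 genes matched the RefSeq gene table of GRCm38.p6. The log2 values of the pair were subtracted, and a gene was counted at 2-fold where its brighter value reached the floor of 6.55. Simulated data were used to test the counting. Since each group has 1 array, no p-value and no spread was computed, and precision is limited by the number of arrays.

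Named genes are the 15 largest differences per direction, by lower bounds and without predicted, clone, olfactory, vomeronasal and small RNA symbols, members of 46 gene lists and 29 families, and the 10 genes that turned most between media. These members and lists were chosen with earlier results of these data known. Motifs were searched in the 250 bases before the start, where the plan had also included bases after it. Protein sequences were not used here. The alternatives were thresholds of 1.5- and 3-fold, other floors or none, quantile normalization, removal of a loess trend, averaging the probe sets of a gene, and setting dim values to the floor. The computing was done in Python 3.11.15 with pandas 2.3.3 and numpy 2.4.6, the loess fit with statsmodels 0.14.6 and the drawing with matplotlib 3.10.9.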

Additional observations from a re-analysis of the deposited data

Results flagged for a closer look

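The 10 genes named here differed by at least 2-fold between the cultures in PBS and by at least 2-fold the other way in another medium. They are the largest such turns, with lower bounds where a value lay below the floor. With 1 array a group, the difference between media was not tested. In each of them the 3 fibroblast arrays spanned a wider range than the 3 cardiomyocyte arrays.

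With the Ccrl2- secretome the acute phase gene Lcn2 was 1.83 higher in CF, against at least 9.21 lower in PBS. Its CF arrays lay at 3.85 in PBS, 10.96 with the Ccrl2+ secretome and 17.28 with the Ccrl2- secretome, and its CM arrays between 15.45 and 15.92. The endothelial selectins Sele and Selp were 6.62 and 4.55 higher in CF in that medium. In PBS the difference of Sele had a bound of -3.28, and that of Selp was -3.97. The serine protease inhibitor gene Serpina3f was 7.12 higher in CF (-1.17 in PBS). Mmp12, the macrophage elastase, was 4.96 higher (-2.21 in PBS), and Slc15a3, a peptide transporter of lysosomes, 5.06 higher (-1.69 in PBS). The interferon-induced genes Ifit1 and Gbp4 were higher by 5.28 and 5.42, against bounds of -2.03 and -1.12 in PBS.

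With the Ccrl2+ secretome Serpina3n was 3.47 higher in CF, against -4.23 in PBS, and its CF arrays lay at 8.88 in PBS, 16.37 with the Ccrl2+ secretome and 12.98 with the Ccrl2- secretome. The transcription factor gene Zbtb16 was 1.16 higher, against a bound of -6.01 in PBS, with CF arrays at 6.35, 13.44 and 6.05 in the same order and CM arrays between 12.22 and 12.56.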

How the results depend on the processing

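No paired analysis was possible because the PBS comparison has 1 array a side and comes from no test; the pairs of the other media are other conditions and were not used as a block. No list median that was at least 2-fold changed direction. Of the smaller ones 2 did, lymphocytes and granulocytes (-0.17, 0.02 without a floor) and the Schwann and neuronal list (0.2, -1.65 with the floor at the 95th percentile of the controls). Of 366 list medians recomputed over 8 settings and 46 lists, 344 stayed on their side of 2-fold, 21 fell under it and 1 passed it, and all 90 differences of the leading genes stayed past it. For the 797 list and family members past the floor, 3 of the settings gave 2391 differences: none of at least 2-fold changed sign, 10 fell under 2-fold, 5 passed it and 4 smaller ones changed sign. The share of calls higher in CF was 45.2% and 41.1 to 48.5% over the alternatives. Quantile normalization moved the median of all genes from 0.01 to -0.04. The counts for CF and CM were 2540 and 2697 at 1.5-fold, 721 and 1034 at 3-fold, 840 and 980 with the floor at the 75th percentile and 717 and 844 with the floor at the 95th percentile of the negative controls; the stricter floors tested fewer genes. Without a floor the medians that fell under 2-fold were cardiac transcription factors (-0.84), other collagens (0.54), myofibroblast genes (0.99), fibroblast transcription factors (0.79), secreted modulators (0.42), mural genes (-0.84), fat and red cell genes (-0.19) and inflammatory genes (-0.04). With values under the floor set to it they were cardiac transcription factors (-0.7), other collagens (0.85), myofibroblast genes (0.94), fibroblast transcription factors (0.71) and mural genes (-0.87). With the floor at the 75th percentile they were cardiac transcription factors (-0.66) and myofibroblast genes (0.93). With the floor at the 95th percentile of the controls they were cardiac transcription factors (-0.64), other collagens (0.75) and myofibroblast genes (0.93), and 1 Schwann and neuronal gene was left. Other collagens were at 0.96 with the floor at the median of the PBS arrays, 0.84 after quantile normalization and 0.98 after removal of the loess trend. The causes were not tested, beyond the change in the genes each floor lets in. Signal close to the negative controls limits statements about dim genes.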

Other observations

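Several contractile and calcium genes best known from fast skeletal muscle lay below the floor on all 6 arrays, and others did not. Troponin I of fast muscle, Tnni2, lay at 5.11 in CF and 4.91 in CM in PBS, troponin T Tnnt3 at 3.92 and 5.24, and troponin C Tnnc2 at 4.23 and 4.25. The skeletal calcium release channel Ryr1 lay at 3.23 and 3.21 and the skeletal calcium pump Atp2a1 at 3.92 and 3.81. The regulatory light chain Mylpf lay at 4.12 and 4.43. The fast-fibre alpha-actinin Actn3 was above the floor on every array, at 7.52 and 7.04 in PBS. Tnnt1, troponin T of slow skeletal muscle, was also above it and near equal, at 8.91 and 9.12, and the essential light chain Myl1 of embryonic and fast muscle was higher in CM, at 8.27 against 14.8.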
